A study of Mus musculus with 28 samples.

Results

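Thyroid cells of 6-month-old H2B-GFP mice were compared after sorting into a GFP+ and a GFP- fraction. The comparison used all libraries whose titles name the thyroid, that age and a GFP status, which gave 8 of the 28 libraries of the series, 4 GFP+ and 4 GFP-. Both fractions were freshly sorted from glands of the same genotype, so the GFP- cells carried the transgene too. The sources used here do not state the promoter that drives the transgene, any induction or chase, the strain or the sex. They do not say whether replicates came from separate animals either, so a p-value speaks of library-to-library spread alone, which may be technical. The remaining libraries are the same fractions of thyroid at 3 and 9 months (14 libraries) and of salivary gland at 9 months, and the thyroid ones entered the statistical fit.

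H2B-GFP is histone H2B fused to green fluorescent protein. It is built into chromatin and is diluted when a cell divides, so in designs where its synthesis is switched off, cells that divide rarely stay bright. The title of the series names quiescent cells of the thyroid gland as its subject. The gland holds follicular cells, which make thyroglobulin and thyroid hormone, calcitonin-secreting C cells, a dense network of fenestrated capillaries, and fibroblasts and mural cells between the follicles, and the parathyroid glands lie against it.

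Polyadenylated RNA had been sequenced from the 3′ end of transcripts, and values are reads per gene. Depth differed by orders of magnitude. The GFP+ libraries held 85074, 76308, 195513 and 507 reads in genes (replicates 1 to 4), against 29831, 4845, 209091 and 115429 reads in the GFP- libraries. GFP+ replicate 4 and GFP- replicate 2 thus had fewer than 10000 gene reads. One read in them equals 1972 and 206 CPM (reads scaled to 1000000 gene reads per library), against 4.78 to 33.5 CPM in the other 6 libraries, which are called the deeper libraries here. CPM values leave out the scaling of the statistical fit, which counted GFP+ replicate 4 and GFP- replicate 2 as 5344 and 7232 reads. The shallow pair also stood apart in reads outside annotated genes, 85.8% of all reads in GFP+ replicate 4 and 52.9% in GFP- replicate 2, against 17.3 to 28.6% in the deeper libraries. Among the deeper libraries this share was 25.9% ± 3.30 in GFP+ and 17.6% ± 0.504 in GFP- cells (SD, n = 3 each). The share of gene reads in ribosomal RNA rows was 29.8% ± 3.01 in GFP+ and 36.0% ± 2.40 in GFP- cells (SD, n = 3 each). These rows include predicted genes that are not annotated as ribosomal RNA. Neither share overlapped between the fractions, and the exact two-sided permutation p was 0.1 for each, the smallest that 3 against 3 libraries allow. Over all 8 libraries both p-values were 0.457 by the same exact test. Rows annotated as ribosomal RNA alone held 14.6 to 18.3% in the deeper GFP+ and 18.1 to 19.3% in the deeper GFP- libraries, with overlap. The part of these shares in the results below was not tested.

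Of 1900 genes tested, 100 (5.26%) were higher and 35 (1.84%) lower in GFP+ than in GFP- cells, or 7.11% in either direction (edgeR quasi-likelihood fit of all 22 thyroid libraries, Benjamini-Hochberg adjusted p under 0.05). The higher genes included 25 of 43 tested fibroblast genes, 5 cytokine and chemokine genes and 3 complement genes. The lower genes included 9 genes of fenestrated capillaries, 2 of C cells and 4 globins. The lists and their members were chosen with earlier results of these data known. Counts and medians of lists, here and below, are therefore descriptions and not separate support. Log2 fold changes (GFP+ over GFP-) of the called genes ran between 2.03 and 6.18 on the higher side and between -1.85 and -7.89 on the lower, while the median of all tested genes was -0.08. The far ends belong to genes with 0 reads in 1 fraction, whose fitted size is not a bound. In the deeper libraries the fractions did not overlap for 94 of the 100 higher and 34 of the 35 lower genes, while among all tested genes 19.1% had every deeper GFP+ library above every deeper GFP- library and 7.16% below. The calls were made on the same reads, so this separation is largely built into them and adds no support. The fits that left out 1 library at a time all called 21 of the higher and 17 of the lower genes. Whether replicate numbers pair the libraries is not stated, and with that number as a block 3 higher and 8 lower genes were called. In bulk libraries like these, fewer cells of a type and less RNA per cell cannot be told apart.

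**Figure D1:**
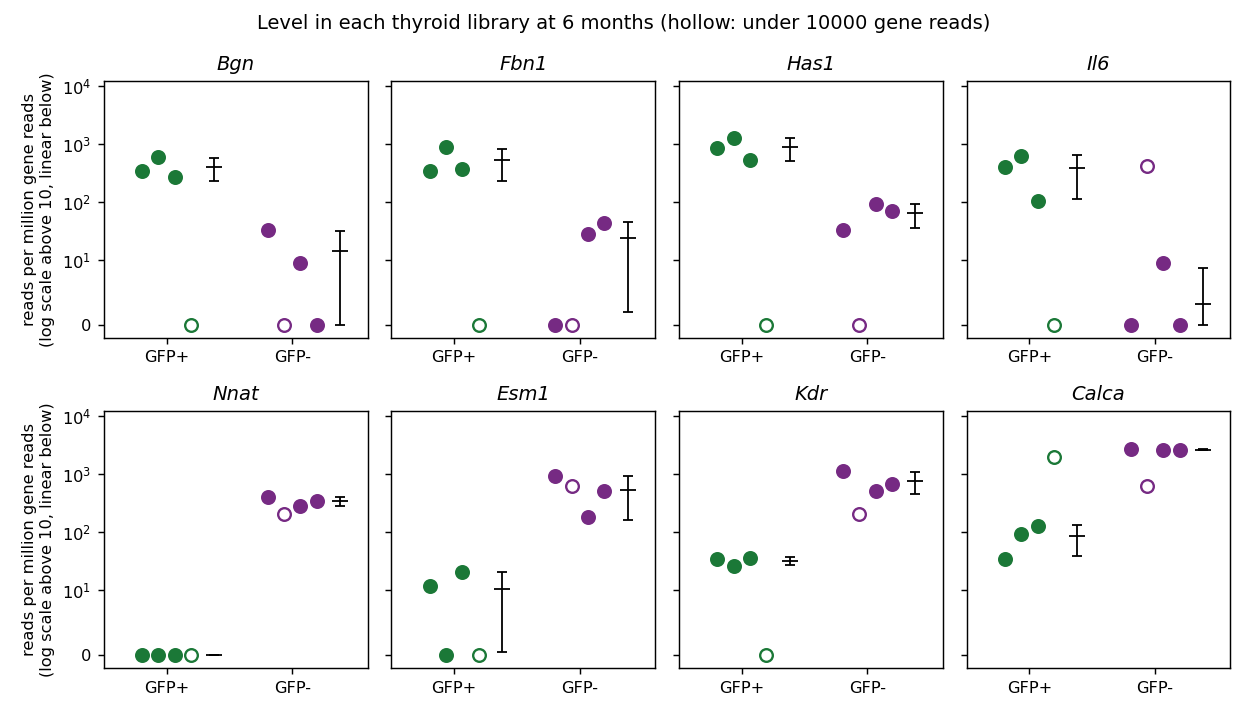
Level of 8 genes in each thyroid library at 6 months, in CPM on an axis that is logarithmic above 10 and linear below, with GFP+ libraries (green) left of GFP- libraries (purple), replicates 1 to 4 from left to right in each. Hollow circles are the libraries under 10000 gene reads, and the black dash and bar give mean and SD of the 3 deeper libraries (bars stop at 0). In the deeper libraries the fractions do not overlap for any of the 8 genes, while hollow circles lie at 0 or at the value of 1 to 3 reads.

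The sequences that follow are the promoter windows of Nnat and Esm1, which had the lowest adjusted p among lower genes, and of Bgn, which had it among higher genes. They run from 250 bases before to 50 after the annotated start and are shown because these are the best supported differences. They come from RefSeq (GRCm38.p6), matched by symbol, and all lie on the + strand, at chr2:157559828-157560127 for Nnat, chr13:113209409-113209708 for Esm1 and chrX:73483351-73483650 for Bgn. Capitals mark AGGAAG, a motif that ETS family factors can bind, on either strand.
Nnat: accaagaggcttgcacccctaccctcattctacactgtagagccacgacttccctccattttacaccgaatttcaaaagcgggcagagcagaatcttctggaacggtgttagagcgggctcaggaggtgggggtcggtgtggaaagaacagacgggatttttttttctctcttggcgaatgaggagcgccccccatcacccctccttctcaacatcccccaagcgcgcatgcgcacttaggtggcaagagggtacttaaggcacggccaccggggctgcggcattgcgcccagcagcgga
Esm1: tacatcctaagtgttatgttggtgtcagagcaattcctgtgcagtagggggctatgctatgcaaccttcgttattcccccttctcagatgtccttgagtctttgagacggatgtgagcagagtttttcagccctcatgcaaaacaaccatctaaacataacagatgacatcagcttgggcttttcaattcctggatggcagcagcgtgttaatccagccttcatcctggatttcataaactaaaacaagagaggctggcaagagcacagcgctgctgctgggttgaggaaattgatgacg
Bgn: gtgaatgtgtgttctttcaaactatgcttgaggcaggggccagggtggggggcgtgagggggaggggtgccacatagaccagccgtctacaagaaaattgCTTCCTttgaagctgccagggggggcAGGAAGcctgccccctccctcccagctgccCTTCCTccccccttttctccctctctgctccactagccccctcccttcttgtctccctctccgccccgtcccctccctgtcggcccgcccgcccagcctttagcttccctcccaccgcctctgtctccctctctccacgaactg
AGGAAG occurred 3 times in the Bgn window, 1 match on the + strand and 2 on the - strand, and in neither of the other windows, and 35.35% of 32851 promoter windows of this length hold it. TATAAA (13.62% of windows), TGANTCA (7.81%), the serum response CArG box (1.63%) and the NF-kB motif (4.51%), searched on both strands, had no match in any of the 3 windows. A match is a run of letters only, and nothing on factor binding follows from its presence or absence.

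Bgn, the gene of the matrix proteoglycan biglycan, was the higher gene with the lowest adjusted p. It had 29, 46, 53 and 0 reads in GFP+ replicates 1 to 4, against 1, 0, 2 and 0 reads in GFP- replicates 1 to 4. The GFP+ libraries above 10000 reads were thus all far above every GFP- library, and the shallow library of either fraction had no read. The ratio of summed reads was 42.9 (95% counting interval 14.3 to 211), with 405 ± 175 CPM in the deeper GFP+ and 14.4 ± 17.3 CPM in the deeper GFP- libraries (SD, n = 3 each). The fitted log2 fold change was 4.88 ± 0.87 (SE, edgeR adjusted p = 1.15e-05), and it lay between 4.35 and 5.35 whichever library was left out.

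Collagen and other matrix genes were called higher in part. Of 11 tested collagen chains 8 rose and 0 fell (list median 2.46, against -0.08 for all genes), and of 20 tested matrix glycoprotein genes 11 rose and 0 fell (median 2.35). DESeq2 called 5 of those 8 and 6 of those 11. Fbn1, which encodes the microfibril protein fibrillin-1, had 29, 66, 72 and 0 reads in GFP+, against 0, 0, 6 and 5 in GFP- libraries (log2 fold change 3.60 ± 0.74, adjusted p = 0.000176). Fn1, the fibronectin gene, had 59, 72, 75 and 0 reads in GFP+, against 3, 0, 15 and 4 in GFP- libraries (2.95 ± 0.70, adjusted p = 0.0014). Both were higher in each of the deeper GFP+ libraries than in any deeper GFP- library. Col5a2, a chain of the fibril-nucleating type V collagen, had 66 reads summed over GFP+ and 3 over GFP- libraries, a ratio of 22.1 (interval 7.24 to 110, adjusted p = 0.000576). Bgn, Fbn1, Fn1 and Col5a2 were called whichever library was left out, and the log2 fold change then ranged from 2.65 to 3.32 for Fn1 and from 3.59 to 4.91 for Col5a2.

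The other collagen and matrix calls were lost in some of the fits that left out 1 library. Log2 fold changes in those 8 fits stayed at 2.01 to 3.18 for Col1a1, 2.18 to 3.05 for Dpt and 2.38 to 3.61 for Col6a2. Col1a1, the main chain of fibrillar type I collagen, had 44, 64, 50 and 0 reads in GFP+, against 7, 0, 7 and 6 in GFP- libraries. The 3 deeper GFP+ libraries were all above the GFP- libraries in CPM. Its log2 fold change was 2.46 ± 0.68 (edgeR adjusted p = 0.00808), and over the fits that left out 1 library adjusted p ran from 0.0021 to 0.134, being 0.0875 without GFP+ replicate 2, 0.134 without GFP- replicate 3 and 0.0813 without GFP- replicate 4. Dpt, the gene of the matrix protein dermatopontin and a broad fibroblast marker, had 99, 118, 112 and 0 reads in GFP+, against 10, 0, 22 and 9 in GFP- libraries (2.53 ± 0.70, adjusted p = 0.00865). It passed in all but the fits without GFP+ replicate 2, GFP- replicate 3 or GFP- replicate 4 (0.0634, 0.0729 and 0.0943, within a range that began at 0.000814). Col6a2, a chain of type VI collagen, was 1 of few called genes with reads in the shallowest library, with 40, 41, 39 and 4 reads in GFP+ against 2, 1, 2 and 7 in GFP- libraries. Those 4 reads of 507 equal 7890 CPM, above every other library, and its log2 fold change was 3.03 with all libraries and 3.06 without the shallow pair. It was not called once GFP- replicate 3 was left out (adjusted p = 0.0793, range 0.00157 to 0.0793).

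Fibroblast surface and progenitor markers rose in 6 of 12 tested cases and fell in none (median 1.98), and DESeq2 called 3 of these 6. Vim, the gene of the mesenchymal intermediate filament vimentin, had 97, 106, 112 and 1 reads in GFP+, against 5, 2, 13 and 10 in GFP- libraries. On the CPM scale it was higher in every GFP+ than in any GFP- library, but GFP+ replicate 4 rests there on 1 read (1972 CPM). On the scale of the fit that read lay below GFP- replicate 2. The log2 fold change of Vim was 2.84 ± 0.72 (adjusted p = 0.00329). Over the fits that left out 1 library its adjusted p ran from 0.000347 to 0.0614, highest without GFP- replicate 3. Pdgfra, the receptor for platelet-derived growth factor that marks fibroblasts and their progenitors, had 34, 23, 21 and 0 reads in GFP+, against 3, 0, 4 and 5 in GFP- libraries (2.31 ± 0.73, adjusted p = 0.028). Its call was lost without GFP+ replicate 1 or 2 or GFP- replicate 3 or 4 (0.157, 0.0782, 0.265 and 0.108, within 0.0143 to 0.265). Thy1, a surface glycoprotein of fibroblasts, had 64 reads summed over GFP+ and 6 over GFP- libraries (3.13 ± 0.80, adjusted p = 0.00329), and adjusted p was 0.0516 without GFP- replicate 3 (range 0.00196 to 0.0516).

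Summed over all 3 fibroblast lists, 53 genes held 39366, 41922 and 21993 CPM in the deeper GFP+ libraries, against 13040, 6337 and 6368 CPM in the deeper GFP- libraries. The shallow libraries stood close together, at 15779 CPM (8 reads) in GFP+ replicate 4 and 16305 CPM (79 reads) in GFP- replicate 2. So the pattern of the deeper libraries could not be seen in the shallow pair, where the GFP+ value rested on 8 reads in 4 genes.

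Several of the strongest rises were in secreted or matrix-modifying genes outside those lists. Angptl1, a secreted angiopoietin-like factor, had 8, 10, 24 and 0 reads in GFP+ libraries and 0 reads in all 4 GFP- libraries. Against a limit of 3 reads over the GFP- group it was at least 14.1-fold higher (adjusted p = 0.000573). This bound takes the GFP+ reads as exact and leaves out their counting error. By the same bound Abca9, a transporter of the ABC family, was at least 13.1-fold higher, Thbs4, the gene of thrombospondin 4, at least 11.7-fold, and Sulf1, which trims sulfate groups from heparan sulfate, at least 11.4-fold. Each of these 4 genes had reads in all deeper GFP+ libraries and in no GFP- library. Adjusted p was 0.00117, 0.00117 and 0.00111 for Abca9, Thbs4 and Sulf1, and all 4 were called whichever library was left out.

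Pcolce, which enhances the processing of procollagen, had 42 reads over GFP+ and 1 over GFP- libraries, a ratio of 42.2 (95% counting interval 7.17 to 1706, adjusted p = 0.00296). Crispld2, a secreted cysteine-rich protein gene, had 66 and 2 reads in GFP+ and GFP- libraries (ratio 33.2, interval 8.82 to 280, adjusted p = 0.000394), and 1 of those 2 reads came from the shallow GFP- replicate 2. Cilp, the gene of a matrix protein first described in cartilage, had 51 and 2 reads in GFP+ and GFP- libraries (ratio 25.6, interval 6.74 to 217, adjusted p = 0.00246). Nbl1, a secreted antagonist of bone morphogenetic proteins, had 69 reads in GFP+ and 3 in GFP- libraries, all 3 from GFP- replicate 3, and its ratio was 23.1 (interval 7.59 to 115, adjusted p = 0.000394). Without that library its log2 fold change was 6.92, against 4.11 with it. Meg3, an imprinted long noncoding RNA, had 46 and 2 reads in GFP+ and GFP- libraries (ratio 23.1, interval 6.05 to 197, adjusted p = 0.00141), both GFP- reads again from replicate 3, without which the log2 value was 6.43 in place of 4.09. The sign and the call of these 5 genes held in each fit that left out 1 library, but the size of the change was loosely fixed, because it was set by 1 to 3 reads on the GFP- side.

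Has1, Ugdh and Uap1 are named after their values were seen, and no list of hyaluronan genes was tested. Has1, a hyaluronan synthase of the cell surface, had 72, 95, 101 and 0 reads in GFP+, against 1, 0, 19 and 8 in GFP- libraries. The deeper libraries averaged 869 ± 365 CPM in GFP+ and 64.6 ± 29.0 CPM in GFP- cells (SD, n = 3 each), with no overlap, and the log2 fold change was 3.07 ± 0.70 (adjusted p = 0.000881, at most 0.0152 when 1 library was left out). Ugdh and Uap1 make the nucleotide sugars that hyaluronan synthases join. Ugdh had 94 reads over GFP+ and 13 over GFP- libraries (2.39 ± 0.73, adjusted p = 0.0185) and was not called without GFP+ replicate 1 or 2 or GFP- replicate 3 or 4 (0.0701, 0.0543, 0.153 and 0.214, within 0.00906 to 0.214). Uap1 had 78 and 11 reads in GFP+ and GFP- libraries (2.50 ± 0.73, adjusted p = 0.0125), and lost its call without GFP+ replicate 2, GFP- replicate 3 or GFP- replicate 4 (0.0699, 0.0758 and 0.128, within 0.00696 to 0.128).

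Pericyte and smooth muscle genes rose in 4 of 7 tested cases and fell in none (median 2.22), and DESeq2 called 1 of these 4, Myh11. Acta2, smooth muscle actin, had 21, 62, 55 and 0 reads in GFP+, against 2, 1, 11 and 8 in GFP- libraries (2.30 ± 0.67, adjusted p = 0.0129). Its call was lost without GFP+ replicate 2 (0.202), GFP- replicate 3 (0.0994) or GFP- replicate 4 (0.0671), over a range of 0.00523 to 0.202. Myh11, smooth muscle myosin heavy chain, had 36 and 2 reads in GFP+ and GFP- libraries, a ratio of 18.1 (interval 4.66 to 155, adjusted p = 0.0125). Tagln, an actin-binding protein of contractile cells, had 30 and 1 reads in GFP+ and GFP- libraries (ratio 30.2, interval 5.01 to 1230, adjusted p = 0.0219). Myh11 was not called without GFP+ replicate 2 (0.0568) or GFP- replicate 4 (0.111), within 0.0101 to 0.111, and its log2 value moved to 5.98 without GFP- replicate 3, against 3.66 with all libraries. Tagln was not called without GFP+ replicate 2 (0.149) or GFP- replicate 3 (0.219), within 0.0196 to 0.219. Rgs5, a pericyte marker, had 51, 55, 64 and 0 reads in GFP+, against 8, 2, 27 and 12 in GFP- libraries, and was not called (1.35 ± 0.63, adjusted p = 0.222).

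**Figure D2:**
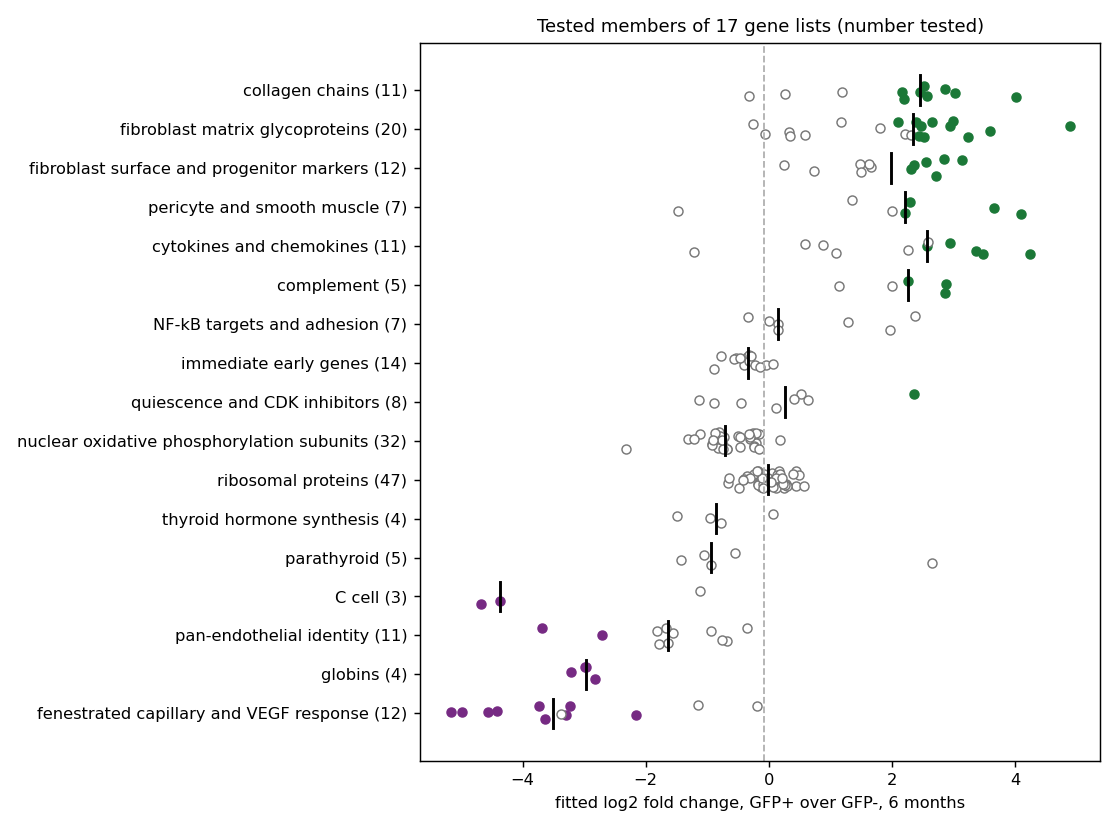
Fitted log2 fold change at 6 months, GFP+ over GFP-, of every tested member of 17 gene lists, with the number tested in brackets. Filled circles are called genes (green higher, purple lower), hollow circles are not called, black bars are list medians and the dashed line is the median of all tested genes (-0.08). Called members of the collagen and matrix lists all lie right of 0, and called members of the capillary, C cell and globin lists all lie left of it.

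Among 11 tested cytokine and chemokine genes 5 rose and 0 fell (median 2.56), and DESeq2 called 3 of these 5. Il6, the gene of interleukin 6, had 34, 48, 20 and 0 reads in GFP+, against 0, 2, 2 and 0 in GFP- libraries. The 2 reads in GFP- replicate 2 equal 413 CPM, which places that shallow library among the GFP+ values, while the deeper GFP- libraries were at 0 to 9.57 CPM. The log2 fold change was 4.25 ± 0.86 with all libraries (adjusted p = 0.000142) and 5.40 without the shallow pair, which was the largest move of any called gene, and the call held whichever library was left out (at most 0.0158).

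Ccl2, which attracts monocytes, had 17, 29, 30 and 0 reads in GFP+, against 0, 0, 9 and 0 in GFP- libraries (2.94 ± 0.75, adjusted p = 0.00329). All its GFP- reads came from replicate 3, and the log2 value was 7.09 without that library. It was not called once GFP- replicate 4 was left out (adjusted p = 0.0747, range 0.00127 to 0.0747). The related Ccl7 had 59 and 4 reads in GFP+ and GFP- libraries (3.36 ± 0.86, adjusted p = 0.00329, lost without GFP- replicate 3 at 0.0863, range 0.00203 to 0.0863). Cxcl1, which attracts neutrophils, was the most abundant, with 165, 76, 241 and 0 reads in GFP+ against 7, 2, 34 and 11 in GFP- libraries (2.56 ± 0.73, adjusted p = 0.0108). Every deeper GFP+ library was above every GFP- library for Cxcl1, yet the call was lost without GFP+ replicate 1 (0.0529), GFP- replicate 3 (0.0618) or GFP- replicate 4 (0.11), within 0.000814 to 0.11. Cxcl10, an interferon-induced chemokine, had 43 and 3 reads in GFP+ and GFP- libraries, a ratio of 14.4 (interval 4.61 to 72.6, adjusted p = 0.0108). All 3 GFP- reads were from replicate 3, without which its log2 value was 6.27 in place of 3.48, and the call was lost without GFP- replicate 4 (0.109, range 0.00798 to 0.109).

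Complement genes rose in 3 of 5 tested cases and fell in none (median 2.25), but DESeq2 called 0 of these 3. Serping1, the inhibitor of the first complement component, had 51, 83, 45 and 0 reads in GFP+, against 1, 5, 7 and 3 in GFP- libraries. Its 5 reads in the shallow GFP- replicate 2 equal 1032 CPM, within the range of the deeper GFP+ libraries, and the log2 fold change was 2.87 ± 0.73 with all libraries (adjusted p = 0.00326) and 3.92 without the shallow pair. It was not called without GFP+ replicate 2 (0.0602), GFP- replicate 3 (0.0931) or GFP- replicate 4 (0.0944), over 8.01e-05 to 0.0944. C1s1, a serine protease of the first component, had 71 and 12 reads in GFP+ and GFP- libraries (2.25 ± 0.72, adjusted p = 0.0289). It was lost without GFP+ replicate 1 (0.0674), GFP+ replicate 2 (0.0948), GFP- replicate 3 (0.103) or GFP- replicate 4 (0.221), within 0.0169 to 0.221. None of 7 tested genes of NF-kB targets and adhesion passed (median 0.15) when all libraries were used, and 2 did without the shallow pair.

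Markers of immune cells were near 0 in these libraries. Of 30 macrophage, lymphocyte, dendritic, mast cell and neutrophil genes, 7 had any read in the 8 libraries and none entered the test. Their sum was 35.3, 26.2, 56.3 and 0 CPM in GFP+, against 0, 0, 67.0 and 26.0 CPM in GFP- libraries. Ptprc, the pan-leukocyte CD45 gene, and the macrophage genes Cd68, Adgre1 and Csf1r had 0 reads in every library. Which cells gave the cytokine and complement reads was not tested.

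On the lower side, genes of fenestrated capillaries and of the response to vascular endothelial growth factor (VEGF) fell in 9 of 12 tested cases and rose in none, with a list median of -3.51. Esm1, the endothelial proteoglycan endocan and a VEGF target, had 1, 0, 4 and 0 reads in GFP+, against 28, 3, 38 and 58 in GFP- libraries. The deeper libraries held 10.7 ± 10.3 CPM in GFP+ and 541 ± 380 CPM in GFP- cells (SD, n = 3 each), and the shallow GFP- library, at 619 CPM from 3 reads, stood with the other GFP- libraries. The log2 fold change was -5.17 ± 0.85 (adjusted p = 1.2e-06) and lay between -6.24 and -4.77 whichever library was left out.

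Kdr, the main VEGF receptor of endothelium, had 3, 2, 7 and 0 reads in GFP+, against 33, 1, 105 and 79 in GFP- libraries. The deeper GFP+ libraries were tightly grouped at 26.2 to 35.8 CPM, below every GFP- library, and the log2 fold change was -4.41 ± 0.86 (adjusted p = 5.86e-05). Btnl9, a butyrophilin-like gene of capillary endothelium, had 3 and 74 reads in GFP+ and GFP- libraries, a GFP+ over GFP- ratio of 0.0407 (interval 0.00822 to 0.124, adjusted p = 1.15e-05). Igfbp3, an insulin-like growth factor binding protein, had 8 and 136 reads in GFP+ and GFP- libraries (-4.56 ± 0.82, adjusted p = 1.15e-05). Plvap, which forms the diaphragms of fenestrae, had 2, 7, 5 and 0 reads in GFP+, against 23, 0, 73 and 76 in GFP- libraries (-3.73 ± 0.73, adjusted p = 6.24e-05). Flt1, a second VEGF receptor, had 11, 8, 8 and 0 reads in GFP+, against 39, 5, 84 and 78 in GFP- libraries (-3.30 ± 0.77, adjusted p = 0.00129). Plpp1, a lipid phosphatase, had 2, 9, 0 and 0 reads in GFP+, against 17, 1, 55 and 28 in GFP- libraries (-3.23 ± 0.74, adjusted p = 0.000927), and its log2 value was -5.21 without GFP+ replicate 2. These 6 genes and Esm1 were called in each of the 8 fits that left out 1 library, with adjusted p of at most 0.0326.

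General endothelial genes fell in 2 of 11 tested cases and rose in none (median -1.64). Podxl, the surface sialomucin podocalyxin, had 14 and 138 reads in GFP+ and GFP- libraries (-3.69 ± 0.76, adjusted p = 0.000176), and the related Emcn, endomucin, had 19 and 105 reads in GFP+ and GFP- libraries (-2.72 ± 0.70, adjusted p = 0.00402). Podxl held in all the fits that left out 1 library, and Emcn was lost without GFP+ replicate 3 (0.0553, range 0.00226 to 0.0553). Pecam1, the junctional marker CD31, had 6, 6, 10 and 0 reads in GFP+, against 0, 0, 22 and 12 in GFP- libraries, with overlap and no call (-0.68 ± 0.71, adjusted p = 0.744). Summed over both endothelial lists, 34 genes held 2633, 2909, 1125 and 0 CPM in GFP+ replicates 1 to 4, against 12906, 5779, 4610 and 7113 CPM in GFP- replicates 1 to 4. All GFP+ libraries were below all GFP- libraries on this sum, and here the shallow libraries fell on the side of their labels, with 0 reads of 507 in GFP+ replicate 4 and 28 of 4845 in GFP- replicate 2. A count of 0 in GFP+ replicate 4 allows up to 5917 CPM, which is above GFP- replicates 2 and 3 and below GFP- replicates 1 and 4. Its 0 could thus not be told from the values of GFP- replicates 2 and 3 at this depth.

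Nnat had the lowest adjusted p of all tested genes. It encodes neuronatin, a small membrane protein of endocrine and neural cells, and had 0 reads in all 4 GFP+ libraries, against 12, 1, 59 and 40 in GFP- replicates 1 to 4. Every GFP- library held it, at 206 to 402 CPM, and it was at least 37.2-fold lower in GFP+ cells against a limit of 3 reads over that group (adjusted p = 1.19e-08). Nnat lies inside an intron of Blcap, which was too low to be tested, and the strand used in counting is not given. Ramp3, a partner of receptors for calcitonin-family peptides, had 0 and 26 reads in GFP+ and GFP- libraries, at least 8.62-fold lower (adjusted p = 0.000293). Piezo2, a mechanically gated ion channel, had 0 and 19 reads in GFP+ and GFP- libraries, at least 6.30-fold lower (adjusted p = 0.00418). The bounds for Nnat, Ramp3 and Piezo2 take the GFP- reads as exact and leave out their counting error.

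Further single genes on the lower side included receptors. Ednrb, an endothelin receptor, had 2 and 32 reads in GFP+ and GFP- libraries, a ratio of 0.0628 (interval 0.00729 to 0.246, adjusted p = 0.00107), and both GFP+ reads were from replicate 1, without which the log2 value was -6.40 in place of -4.18. Adgrl4, an adhesion receptor of endothelium, had 5 and 60 reads in GFP+ and GFP- libraries (-4.02 ± 0.81, adjusted p = 0.000127). Car4, a carbonic anhydrase anchored on capillary endothelium, had 1 and 24 reads in GFP+ and GFP- libraries (ratio 0.0419, interval 0.00102 to 0.257, adjusted p = 0.00894). Car4 was lost without GFP+ replicate 2 (0.0543) or 3 (0.0725), over 0.00768 to 0.0725. Ednrb, Adgrl4, Nnat, Ramp3 and Piezo2 were called in each fit that left out 1 library.

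C cell genes split. Calca, which encodes calcitonin and calcitonin gene-related peptide, had 35.3, 91.7, 128 and 1972 CPM in GFP+, against 2648, 619, 2554 and 2616 CPM in GFP- libraries. In the deeper libraries this was 85.0 ± 46.7 CPM in GFP+ and 2606 ± 48.0 CPM in GFP- cells (SD, n = 3 each). The single read in GFP+ replicate 4 equals 1972 CPM and the 3 reads in GFP- replicate 2 equal 619 CPM. In CPM the shallow pair thus went the other way from the deeper libraries, on 4 reads in all. On the scale of the fit, where these libraries count as 5344 and 7232 reads, GFP- replicate 2 was the higher. The log2 fold change was -4.68 ± 0.86 (adjusted p = 1.88e-05) and -5.06 without the shallow pair. Scg2, a secretory granule protein gene, had 4 and 78 reads in GFP+ and GFP- libraries (-4.37 ± 0.82, adjusted p = 3.26e-05). Both were called whichever library was left out. Chga, the granule protein chromogranin A, which parathyroid cells also make, had 681, 402, 4105 and 0 reads in GFP+, against 394, 10, 5253 and 2837 in GFP- libraries. It overlapped between fractions and did not pass (-1.11 ± 0.78, adjusted p = 0.549).

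Thyroid follicular genes were present in both fractions, and none of 4 tested genes of hormone synthesis passed (median -0.86). Tg, thyroglobulin, had 3421, 1586, 2368 and 0 CPM in GFP+, against 7040, 1858, 3310 and 1993 CPM in GFP- libraries. The deeper libraries held 2458 ± 921 CPM in GFP+ and 4114 ± 2618 CPM in GFP- cells, with overlap (-0.95 ± 0.77, adjusted p = 0.629). Iyd, which recovers iodide, had 21 and 51 reads in GFP+ and GFP- libraries (-1.49 ± 0.68, adjusted p = 0.208). The transcription factor genes Pax8 (6 and 8 reads in GFP+ and GFP- libraries) and Nkx2-1 (3 and 6 reads) and the hormone receptor gene Tshr (1 and 6 reads) were too low to be tested. Foxe1, another thyroid factor, had 8 and 21 reads in GFP+ and GFP- libraries (-1.66 ± 0.91, adjusted p = 0.354). The iodide transporter gene Slc5a5 had 0 and 3 reads in GFP+ and GFP- libraries, and Slc26a4 had 0 in both.

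Reads of the parathyroid hormone gene outnumbered those of Tg in both fractions, on a scale of 3′ end reads that does not grow with transcript length. Pth, parathyroid hormone, had 1862, 808, 11905 and 13 reads in GFP+, against 774, 89, 14131 and 6199 in GFP- libraries, which is 10590 to 60890 CPM in GFP+ and 18370 to 67580 CPM in GFP- cells. Single libraries of 1 fraction thus differed more than the fractions did, and Pth did not pass (-0.94 ± 0.77, adjusted p = 0.629). None of 5 tested parathyroid genes passed. Kl, the co-receptor klotho, came nearest, with 117 and 263 reads in GFP+ and GFP- libraries (-1.44 ± 0.57, adjusted p = 0.106). The part that differing parathyroid shares of the libraries have in the other results was not tested.

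All 4 tested globin genes, the products of red blood cells, were lower in GFP+ cells (median -2.98). Hbb-bs, an adult beta globin, had 15, 71, 199 and 0 reads in GFP+, against 29, 23, 1765 and 412 in GFP- libraries (-2.96 ± 0.77, adjusted p = 0.00418). The highest value, 8441 CPM, was in GFP- replicate 3. Without that library Hbb-bs, Hbb-bt, Hba-a1 and Hba-a2 were not called (adjusted p = 0.105, 0.0512, 0.103 and 0.215), and Hba-a2 moved to -1.80, against -3.22 with it. Hbb-bs was also lost without GFP+ replicate 1 (0.0603). Over the fits that left out 1 library, adjusted p ran from 5.13e-05 to 0.215 for these 4 genes. All 4 stayed called without the shallow pair, but 1 of the 4 was called without the thyroid libraries under 10000 reads at any age, 1 in the fit of the 6 deeper libraries at 6 months alone and 2 with DESeq2. The pairs are near-identical copies, so the reads of 1 gene of a pair may have been given to the other. Skeletal muscle genes, with 8 in the list, had 0 reads in GFP+ libraries, against 234 to 603 CPM in the deeper GFP- libraries, and were too low to be tested. The part of blood and muscle RNA in the results was not tested.

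Markers of other cell types were few. Of the Schwann cell and nerve list both tested members rose, Ncam1, an adhesion molecule, with 30 and 1 reads in GFP+ and GFP- libraries (ratio 30.2, interval 5.01 to 1230, adjusted p = 0.0285), and the sodium channel gene Scn7a with 62 and 5 (3.23 ± 0.83, adjusted p = 0.00361). Ncam1 was lost without GFP+ replicate 1 (0.162), GFP+ replicate 3 (0.0567), GFP- replicate 3 (0.0863) or GFP- replicate 4 (0.155), within 0.022 to 0.162, and with DESeq2 (0.0749), and Scn7a without GFP- replicate 3 (0.0544) or 4 (0.054), within 0.0019 to 0.0544. Sox10, a transcription factor gene of Schwann cells, had 2 reads in GFP+, against 0 in GFP- libraries, too few to be tested. Pdpn, podoplanin, made by lymphatic endothelium and by fibroblasts, had 42 and 4 reads in GFP+ and GFP- libraries (2.90 ± 0.93, adjusted p = 0.0303). It was lost without GFP+ replicate 1 (0.0513), GFP+ replicate 2 (0.155), GFP- replicate 3 (0.197) or GFP- replicate 4 (0.254), within 0.008 to 0.254, and with DESeq2 (0.0797). The lymphatic genes Lyve1, Prox1 and Mmrn1 had 5, 2 and 4 reads in GFP+, against 0, 7 and 0 in GFP- libraries. Epcam, an epithelial adhesion molecule, overlapped between the fractions (-0.86 ± 0.57, adjusted p = 0.5).

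Genes of the cell cycle and of quiescence gave little. Of 16 proliferation genes none reached the tested set. Mki67, the marker of cycling cells, had 0 reads in both fractions and Top2a had 0 in GFP+, against 4 in GFP- libraries. Over the list this was 75.6 CPM in the pooled GFP+ and 66.8 CPM in the pooled GFP- libraries. Of 8 tested genes of quiescence and cyclin-dependent kinase inhibition, Gas1, a growth arrest gene of fibroblasts, was higher, with 52, 10, 15 and 0 reads in GFP+ against 5, 0, 5 and 1 in GFP- libraries (2.36 ± 0.73, adjusted p = 0.0218). That call rested on GFP+ replicate 1, without which the log2 value was 1.16 and adjusted p 0.671, and it was also lost without GFP- replicate 3 (0.215) or 4 (0.266), within 0.00343 to 0.671, and with DESeq2 (0.171). Cdkn1a, the kinase inhibitor p21, had 104 and 72 reads in GFP+ and GFP- libraries, with overlap (0.52 ± 0.62, adjusted p = 0.797). Cdkn1b, the inhibitor p27, had 5 and 25 reads in GFP+ and GFP- libraries and was not tested.

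Signalling and stress genes moved in few cases. Of 9 tested genes of transforming growth factor beta and bone morphogenetic protein signalling 3 rose, among them Tgfbi (3.27 ± 0.89, adjusted p = 0.00686) and Ccn2 (2.12 ± 0.69, adjusted p = 0.0333), known targets of that pathway. DESeq2 called 0 of these 3. Tgfbi was lost without GFP+ replicate 2 (2.08, adjusted p = 0.346) or GFP- replicate 4 (0.085), within 0.00443 to 0.346, and stood at 6.67 without GFP- replicate 3. Ccn2 was not called in 5 of 8 such fits, those without GFP+ replicate 1 (0.0761) or 2 (0.249) and without GFP- replicate 2 (0.0522), 3 (0.262) or 4 (0.308), within 0.00481 to 0.308. In the insulin-like growth factor list Igfbp3 fell, as given above, while Igfbp6 rose (2.48 ± 0.72, adjusted p = 0.0128, lost without GFP+ replicate 2 at 0.1 or GFP- replicate 3 at 0.199, within 0.00744 to 0.199, and with DESeq2 at 0.0655). Of 5 tested genes of Wnt inhibition and signalling 1 rose, Sfrp1, a secreted Wnt inhibitor (24 and 1 reads in GFP+ and GFP- libraries, ratio 24.1, interval 3.93 to 992, adjusted p = 0.0133). Sfrp1 was lost without GFP+ replicate 2 (0.354) or GFP- replicate 3 (0.192), within 0.00598 to 0.354, and with DESeq2 (0.0754).

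Of 17 tested antioxidant and selenoprotein genes 3 rose and 0 fell (median 0.15). Sod3, the extracellular superoxide dismutase bound to matrix, had 18, 23, 18 and 0 reads in GFP+, against 0, 0, 4 and 0 in GFP- libraries (3.63 ± 0.85, adjusted p = 0.00131). Gstm1, a glutathione transferase, had 31, 46, 34 and 0 reads in GFP+, against 0, 0, 8 and 5 in GFP- libraries (2.93 ± 0.72, adjusted p = 0.00263). Both held whichever library was left out, and Sod3 stood at 6.79 without GFP- replicate 3, the only GFP- library with its reads. Hmox1, heme oxygenase 1, only just passed (2.10 ± 0.71, adjusted p = 0.0427). It was not called in 6 of 8 fits, those without GFP+ replicate 1 (0.0513), 2 (0.074) or 3 (0.205) and without GFP- replicate 1 (0.0882), 2 (0.0588) or 4 (0.281), while without GFP- replicate 3 it passed (lowest of the range, 0.014) at a log2 value of 4.33.

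The 14 tested immediate early genes, which cell dissociation can induce, had no call, and the summed level of all 16 in the list was 12760 to 15850 CPM in the deeper GFP+ and 14750 to 15710 CPM in the deeper GFP- libraries. Fos, an early response transcription factor, had 1837 ± 452 CPM in the deeper GFP+ and 1856 ± 237 CPM in the deeper GFP- libraries (-0.36 ± 0.71, adjusted p = 0.911). Lists of 10 heat shock, 8 endoplasmic reticulum stress, 9 interferon and class I, 7 mitochondrial messenger and 47 ribosomal protein genes also had no call, with medians between -0.34 and -0.02 on the log2 scale. The 32 tested nuclear genes of oxidative phosphorylation had no call either, though 31 of the 32 had a negative value. Their median was -0.71, against -0.08 for all tested genes. These genes were read in the same libraries, so they are not separate observations. The summed level of the 41 with reads was 5805 to 8455 CPM in the deeper GFP+, against 9036 to 10660 CPM in the deeper GFP- libraries. The deeper libraries did not overlap on that sum. In this direction 7.16% of single tested genes did not overlap either, but single genes have more counting error than a sum. The share of sums of like size was not counted.

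The dependence on the libraries under 10000 gene reads was examined for all calls. In GFP+ replicate 4, 96 of the 100 higher genes and 34 of the 35 lower genes had 0 reads. GFP- replicate 2 had a read in 44 of the 135 called genes. Without both libraries 132 genes (6.95%) were higher and 42 (2.21%) lower, and all 100 higher and all 35 lower genes stayed called. Log2 fold changes of the called genes moved by a median of 0.08, 131 of 135 of them away from 0, and 7 moved by over 0.5, Il6 the most (1.16). Leaving out GFP+ replicate 4 alone gave 126 higher and 36 lower genes, and leaving out GFP- replicate 2 alone gave 107 and 41.

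Of the 39 calls gained without the shallow pair 13 were members of a list, and the 5 given here are named after their values were seen. Among the 32 gained higher genes were Dcn, the gene of the proteoglycan decorin (2.73, adjusted p = 0.00355, against 2.21 and 0.0792 with all libraries), the complement gene C1ra (2.21, adjusted p = 0.0233, against 0.053) and Vcam1, an adhesion molecule (2.71, adjusted p = 0.0258, against 2.38 and 0.0562). Among the 7 gained lower genes were Ptprb, an endothelial phosphatase (-1.94, adjusted p = 0.0412, against -1.82 and 0.0874), and Rsad2, an interferon-induced gene (-2.08, adjusted p = 0.0258, against -1.96 and 0.0529). A fit of the 6 deeper libraries at 6 months alone, an alternative chosen after the data were seen, called 142 higher and 38 lower genes, with 96 of the 100 and 30 of the 35 among them.

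**Figure D3:**
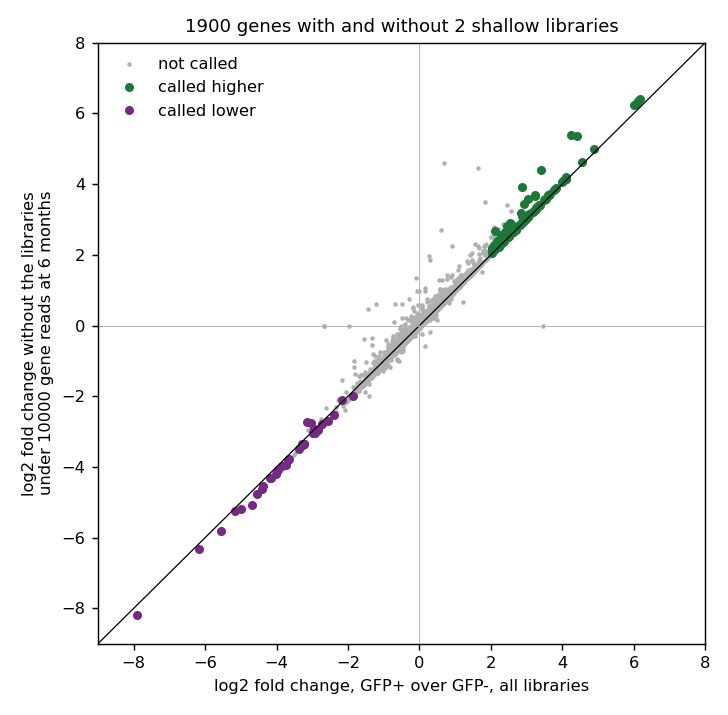
Fitted log2 fold change (GFP+ over GFP-) of 1900 genes with all thyroid libraries (horizontal) and without the 2 libraries under 10000 gene reads at 6 months (vertical). Green and purple points are genes called higher and lower with all libraries, grey points are not called, and the line marks equal values. Called genes lie on the line or slightly further from 0, with a few higher ones, such as Il6, well above it.

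The choice of deeper libraries mattered more. Leaving out GFP+ replicate 2, GFP- replicate 3 or GFP- replicate 4 cut the higher calls to 49, 40 and 43, and leaving out GFP+ replicate 1 gave 72. The lower calls then stood at 29, 27, 34 and 29 for the same libraries in that order. Without GFP+ replicate 3 there were 103 higher and 55 lower calls, and without GFP- replicate 1 there were 112 and 33. The genes called in all 8 of these fits were 21 on the higher side, among them 4 of 25 called fibroblast list genes, and 17 on the lower side, among them 7 of 9 called fenestrated capillary genes.

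**Figure D4:**
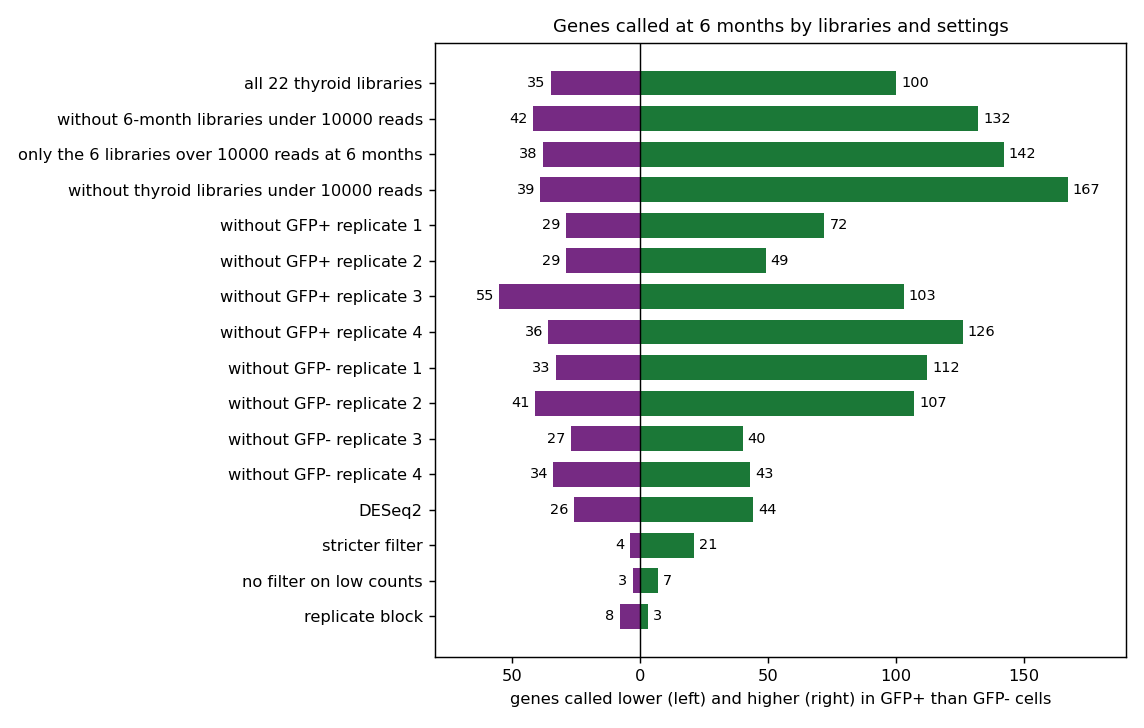
Number of genes called lower (purple, left) and higher (green, right) in GFP+ than in GFP- cells at 6 months, with all 22 thyroid libraries, without the libraries under 10000 gene reads, without each library in turn, and under other settings. Higher calls run from 3 to 167 and lower calls from 3 to 55.

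Whether the GFP difference at 6 months differed from that at 3 and 9 months was tested as an interaction in the same fit. No gene passed (0 of 1900, lowest adjusted p = 0.9999), and 61 genes (3.21%) had an unadjusted p under 0.05. DESeq2 also called 0, with 41 genes under an unadjusted 0.05. Without the thyroid libraries under 10000 reads at any age, 1 gene passed, Adamts1, a secreted metalloprotease (interaction 1.93, adjusted p = 0.0487, against 1.37 and 0.9999 with all libraries). A p that misses the threshold does not show that the ages were alike. Of the 100 higher genes, 94 were also above 0 at both other ages, and of the 35 lower genes 33 were below 0 at both. The median of all tested genes was -0.26 at 3 and 0.11 at 9 months, and the share of all tested genes with 1 sign throughout was not counted. The values at 3 and 9 months come from other libraries, which however shared the filter, the scaling and the estimate of spread with the calls at 6 months. At 3 months, where 4.95% of genes were called higher and 4.74% lower, 52 of the 100 and 30 of the 35 were called in the same direction. At 9 months, where 0.263% were called higher and 1.63% lower, 0 of the 100 and 16 of the 35 were.

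Values at the other ages differed between the higher and lower genes. The 21 higher genes called in all the fits that left out 1 library had a median log2 value of 2.34 at 3, 4.09 at 6 and 1.19 at 9 months, and the 17 lower genes had medians of -4.38, -4.37 and -3.71 at those ages. As the genes were chosen at 6 months, larger values at that age are built into the choice. Esm1 stood at -9.36, -5.17 and -5.61 at 3, 6 and 9 months, Kdr at -5.05, -4.41 and -5.10, and Calca at -5.34, -4.68 and -3.93, each called at all 3 ages. Bgn stood at 2.34, 4.88 and 2.01 and was called at 3 and 6 months only, while Fn1, at 1.15, 2.95 and 1.24, and Gstm1, at 0.49, 2.93 and 1.21, were called at 6 months only. Tg stood at -1.91, -0.95 and -3.79 and was called at 9 months only (adjusted p = 0.00829). Being called at 1 age and not at another is not a tested difference, and none of these genes passed the interaction test.

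**Figure D5:**
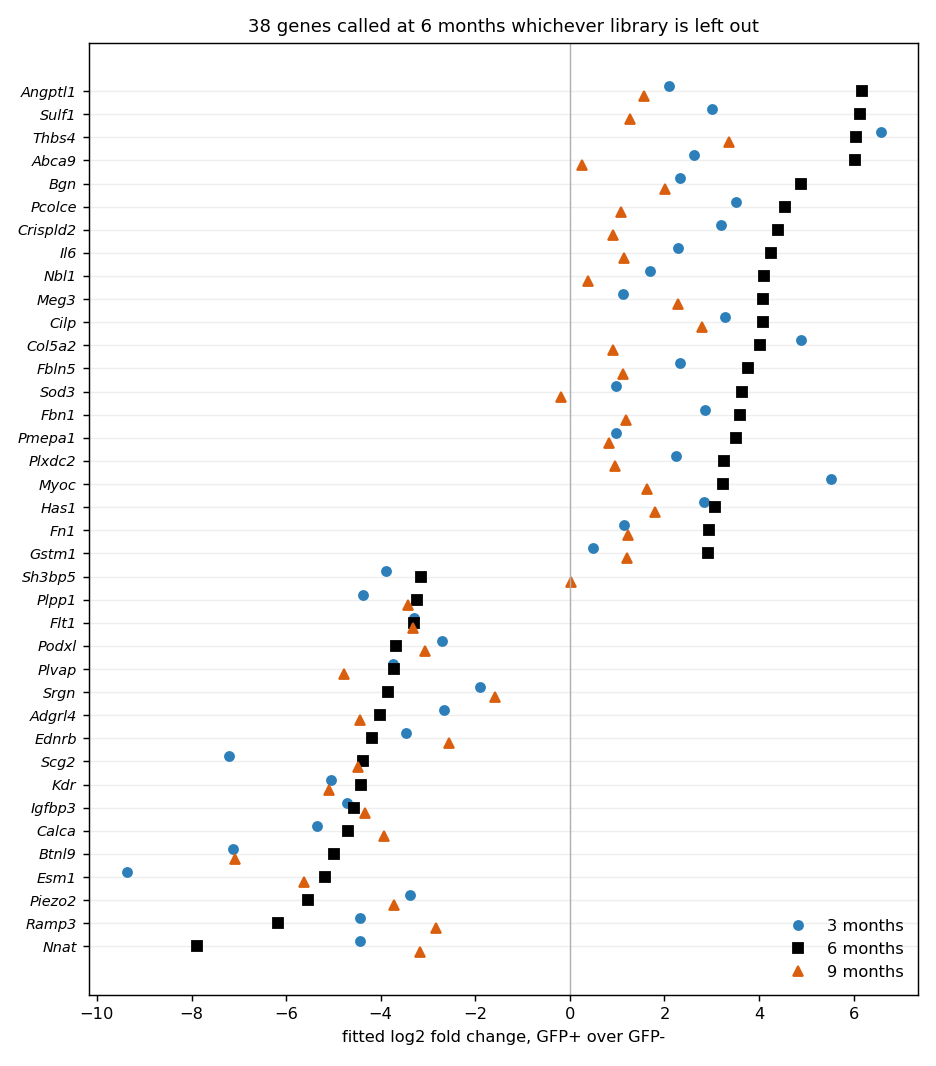
Fitted log2 fold change, GFP+ over GFP-, at 3 months (blue circles), 6 months (black squares) and 9 months (orange triangles) of the 38 genes called at 6 months in every fit that left out 1 library at that age. The 17 lower genes are below 0 at 3 months and 16 of them at 9 months, while 21 and 20 of the 21 higher genes are above 0 at 3 and 9 months, with smaller values at 9 months.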

How the data were processed

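Per the labels' protocols, polyadenylated RNA of sorted cells was purified on columns with DNase digestion and made into libraries with a 3′ messenger RNA kit (QuantSeq). Per the submitters' processing notes, bcl2fastq and the mm9 build were used; the alignment and counting programs and the strand setting are not given in the sources used here. The deposited values are raw read counts per Ensembl gene (47643 gene rows), and 5 summary rows per file were left out. Of the identifiers 47224 matched a symbol and 419 did not. No molecular identifiers are recorded, so intervals and limits cover counting error only.

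The counts of all 22 thyroid libraries (6 groups of age and GFP status) were fitted with edgeR 4.0.16 in R 4.3.3, with TMM scaling, filterByExpr (minimum count 10, minimum total 15) and the quasi-likelihood test, which kept 1900 genes (biological coefficient of variation 0.466). TMM factors at 6 months ran from 0.582 to 10.54, the highest in GFP+ replicate 4. Adjusted p-values are Benjamini-Hochberg values over all tested genes, with a threshold of 0.05. The SE given for a log2 fold change is its absolute value divided by the square root of the F statistic of that test. It therefore restates the test and is not a separate estimate. DESeq2 1.42.0 was an alternative. Library shares were compared with exact permutation tests (scipy 1.17.1). Of 12 replicate pairs none was identical, and chi-square per degree of freedom was at least 1.13. The script was tested on simulated data.

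Genes named in the text were the up to 12 highest and 12 lowest called genes without overlap in the deeper libraries, up to 6 called members of each list, and a fixed set of markers; Has1, Ugdh, Uap1, Flt1, Rgs5, Chga, Sox10, Lyve1, Prox1, Mmrn1, Cd68, Adgre1, Csf1r, Slc26a4, Adamts1 and the calls gained without shallow libraries were chosen after their values were seen. The members and lists were chosen with earlier results of these data known. Promoter windows are from RefSeq, GRCm38.p6, a later build than that of the counts, and no coordinates of the counts were used. Alternatives changed the scaling, the test, the filter, the libraries in the fit, the ribosomal RNA rows and the pairing. Some results are not reported here.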

Additional observations from a re-analysis of the deposited data

Results flagged for a closer look

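In 31 of 172 sets of 4 libraries of 1 fraction, the value of 1 library lay apart from the others, by a gap large against the range of the set. Sets with 0 reads in all 4 libraries count among the 172 but cannot meet this rule. For normal values of equal precision chance gives this in about 1 in 20 sets. That rate was not measured for counts like these, where 3 libraries at 0 and 1 with a single read already meet it, so the number of such sets has no chance level here.

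In the libraries under 10000 gene reads the far values rest on a handful of reads. In GFP+ replicate 4 these were Calca at 1972 CPM (1 read) and Col6a2 at 7890 CPM (4 reads), both the highest GFP+ value. In GFP- replicate 2 the highest GFP- values were Crispld2, Acta2, Scn7a and Foxe1 at 206.4 CPM (1 read each), Il6 at 412.8 CPM (2 reads) and Serping1 at 1032 CPM (5 reads), while Calca was the lowest at 619.2 CPM (3 reads). The share of reads outside annotated genes was also far out in both, at 85.81% in GFP+ replicate 4 and 52.95% in GFP- replicate 2.

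GFP- replicate 3, the deepest GFP- library, had the highest listed GFP- value for 10 genes that were higher in GFP+ cells. Pcolce and Ncam1 stood there at 4.783 CPM, Meg3 and Myh11 at 9.565, Nbl1 and Cxcl10 at 14.35, Sod3 at 19.13, Tgfbi at 23.91, Ccl2 at 43.04 and Hmox1 at 62.17 CPM. Apart from Hmox1, which had 1 read in GFP- replicate 4, the other GFP- libraries had 0 reads of these genes. As 1 read equals 33.5, 206 and 8.66 CPM in GFP- replicates 1, 2 and 4, those zeros allow values as high as most of these, which rest on 1 to 13 reads. One lower gene, Hba-a1, was far out in the same library, at 856.1 CPM.

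GFP- replicate 1 was the highest GFP- library for Gas1 (167.6 CPM), Ccn2 (201.1 CPM), Pdpn (67.04 CPM) and Plpp1 (569.9 CPM), and for the share of gene reads in mitochondrial messengers (6.275%). GFP- replicate 4 was highest for Tagln and Sfrp1, each at 8.663 CPM from 1 read. GFP+ replicate 1 was the highest GFP+ library for Ednrb (23.51 CPM, 2 reads) and Car4 (11.75 CPM, 1 read).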

How the results depend on the processing

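Against 100 higher and 35 lower genes with all 22 thyroid libraries, DESeq2 called 44 higher genes, and its lower count stayed within 1.5 times. No filter on low counts left 7 higher and 3 lower of 16525 genes, and a stricter filter 21 and 4 of 321 genes; both change the number of genes tested. Without all thyroid libraries under 10000 reads, 167 genes were higher and 1 differed between ages (0 with all libraries). Leaving out 1 library gave 40 to 126 higher, 27 to 55 lower and 0 to 0 genes that differed between ages. Other scaling, the 8 libraries at 6 months alone, all 28 libraries and no ribosomal RNA rows kept both counts within 1.5 times.

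Whether replicate numbers pair the libraries is not stated in the sources and was not settled. Deviations of same-numbered libraries correlated at 0.053, 0.074, 0.351 and -0.089, and those of differently numbered libraries at -0.278 to 0.264. For GFP+ replicates 1, 2 and 3 the same-numbered GFP- library had the highest value, and for GFP+ replicate 4 it did not. With the replicate number as a block, 3 higher and 8 lower genes were called, and of the lists 2 of 2 C cell, 2 of 9 fenestrated capillary and 1 of 11 matrix glycoprotein calls were kept. Every other list lost all its calls. Among them were 0 of 8 collagen, 0 of 6 fibroblast surface, 0 of 4 pericyte and smooth muscle and 0 of 5 cytokine calls kept. The same held for 0 of 3 complement, 0 of 4 globin and 0 of 2 general endothelial calls.

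Among the single genes named, Cdkn1a, which was not called, changed sign. It ran from -0.18 to 0.98 when 1 library was left out, at -0.18 without GFP+ replicate 2. The cause was not tested. Depth limits the size of most changes: 1 read equals 4.78 to 1972 CPM, and low genes rest on single reads in 1 fraction.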
